A study of Mus musculus with 11 samples.

Results

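The genes of insulin, amylin and prohormone processing were followed through 11 bulk RNA-seq libraries of mouse pancreatic islets. Rows of the count tables were chosen by gene symbol, and all 10 symbols on the list were found among 55536 genes: *Ins1*, *Ins2*, *Iapp*, *Pcsk1*, *Pcsk2*, *Pcsk1n*, *Cpe*, *Chga*, *Chgb* and *Scg5*. All 10 passed the filter on low counts and were tested.

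All islets came from wild-type female C57BL/6J mice that entered the study at 9 weeks of age. Mice labelled multipara had gone through 3 pregnancies and were studied 3 weeks after the last delivery, and mice labelled virgin were littermates that had not been mated. S-961, a peptide that blocks the insulin receptor, was injected into the peritoneum over 3 days, with a dose of 100 nmol/kg given 2 times each day, before islets were taken for 3 virgin and 4 multipara libraries. The remaining libraries, 2 virgin and 2 multipara, came from untreated mice, and a group injected with vehicle was not analysed here, so that S-961 and the injections cannot be told apart. The labels do not say whether a library is 1 mouse or a pool, so that the p-values measure the spread between these libraries.

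Insulin is made by β cells as a longer precursor, proinsulin, that is packed into secretory granules together with islet amyloid polypeptide (amylin). In the granule, the proprotein convertases PC1/3 (*Pcsk1*) and PC2 (*Pcsk2*) cut prohormones behind pairs of basic residues, and carboxypeptidase E (*Cpe*) trims the basic residues that are left at the new end. The small proteins proSAAS (*Pcsk1n*) and 7B2 (*Scg5*) bind PC1/3 and PC2, respectively, and the chromogranins *Chga* and *Chgb* are acidic proteins that fill the granule core. PC2 also releases glucagon in α cells, so that most of these genes are shared by several endocrine cell types of the islet, whereas the insulin genes mark β cells.

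The cutting sites are shown because they join the hormones to the convertases that process them, and *Pcsk1* was higher while both insulin genes were lower with S-961. Each line gives 66 coding bases read from the GENCODE M21 transcripts (GRCm38), with the 2 codons for the paired basic residues in capitals. In both insulin genes the first pair, 2 arginines at codons 55 and 56 counted from the start codon, lies between the B chain and the C-peptide. The second pair, a lysine and an arginine at codons 86 and 87 of *Ins1* and 88 and 89 of *Ins2*, lies between the C-peptide and the A chain. In *Iapp* the pairs, each a lysine and an arginine, lie at codons 36 and 37 and at codons 76 and 77.
Ins1 first pair: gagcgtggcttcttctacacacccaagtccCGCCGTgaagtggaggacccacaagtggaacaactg
Ins2 first pair: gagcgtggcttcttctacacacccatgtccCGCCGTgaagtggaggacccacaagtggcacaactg
Ins1 second pair: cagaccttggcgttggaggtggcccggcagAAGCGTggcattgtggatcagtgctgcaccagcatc
Ins2 second pair: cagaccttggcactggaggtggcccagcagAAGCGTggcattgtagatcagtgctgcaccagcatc
Iapp first pair: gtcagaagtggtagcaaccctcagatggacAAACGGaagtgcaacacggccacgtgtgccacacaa
Iapp second pair: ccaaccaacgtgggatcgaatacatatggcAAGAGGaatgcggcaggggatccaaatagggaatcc
On GRCm38 the codon pairs were at chr19:52264786-52264791 and chr19:52264879-52264884 on the plus strand (*Ins1*). They were at chr7:142679366-142679371 and chr7:142678779-142678784 on the minus strand (*Ins2*). Those of *Iapp* were at chr6:142303328-142303333 and chr6:142303448-142303453 on the plus strand. With a gap of 6 bases in *Ins1*, the coding sequences of *Ins1* (324 bases) and *Ins2* (330 bases) were identical at 300 of 324 positions, or 92.6%. The longest identical run was 54 bases. A read that lies wholly within such a run cannot be assigned to 1 gene. The counts of *Ins1*, *Ins2* and *Pcsk2* were not whole numbers in any of the 11 libraries, whereas those of the other 7 genes were whole in all of them. The source of the fractional values was not tested. How well counts were split between *Ins1* and *Ins2* was not tested either, so that their sum is given beside them.

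Total counts per library ran from 22028507 to 32234146. Values are given as CPM, the counts scaled to a common library size after TMM scaling, which corrects the library size for a few very abundant genes. TMM factors ran from 0.72 to 0.84 in untreated and from 1.07 to 1.30 in S-961 libraries. The islet libraries expressed the β cell genes at high levels, and *Ins2* and *Ins1* were the most abundant transcripts in both treatments by median CPM. The S-961 libraries also differed from the untreated ones in exocrine transcripts: all 20 acinar markers were higher, and their summed level was 152 to 293 CPM in untreated and 2588 to 18606 CPM in S-961 libraries. The labels give no extraction or sequencing batch. The library labelled multipara S-961 replicate 4 stood with the libraries labelled virgin S-961 in *Mki67*, a proliferation marker. It had 3.93 CPM, against 3.04 to 13.9 CPM in virgin S-961 and 43.5 to 93.9 CPM in the other 3 multipara S-961 libraries. The library labelled multipara untreated replicate 1 had 38.6 CPM of *Mki67* against 2.14 to 6.54 CPM in the other untreated libraries, and the highest immune marker sum, 2447 CPM against 460 to 488 CPM. Results that rest on these 2 libraries are given with and without them. Whether the deposited parity labels of the S-961 libraries are right was not tested, so that each parity and interaction value below compares the libraries as labelled.

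*Ins1* and *Ins2* took a smaller share of the islet transcripts in the S-961 libraries. Together they held 35.27%, 36.02%, 35.91% and 41.41% of all counts in virgin untreated 1 and 2 and multipara untreated 1 and 2. With S-961 the share was 15.3%, 15.7% and 20.7% in the virgin libraries and 13.3%, 17.3%, 13.2% and 16.4% in the multipara libraries. No S-961 library reached the lowest untreated one. The other 8 genes together held 4.82% to 5.33% of all counts in untreated and 4.53% to 6.15% in S-961 libraries, and these ranges overlapped. Of the counts outside the insulin genes, the 8 genes held 7.52% to 8.39% without and 5.22% to 7.44% with S-961.

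**Figure D1:**
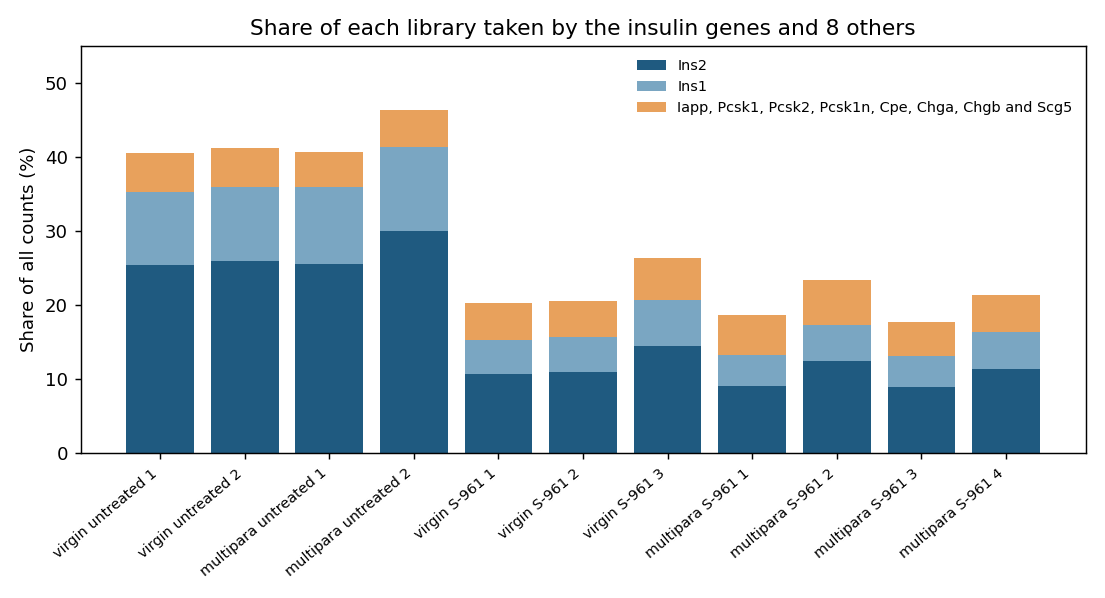
Share of all counts in percent (y axis) taken by *Ins2*, *Ins1* and the 8 other genes together (stacked bars) in each of the 11 libraries (x axis). The insulin part stands at 35.3% to 41.4% in the 4 untreated and at 13.2% to 20.7% in the 7 S-961 libraries, while the part of the 8 other genes stays between 4.53% and 6.15%.

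Per kilobase of exon, the order of median levels in the untreated islets was *Ins2* (244394 CPM per kb), *Ins1* (116553), *Iapp* (31873), *Chga* (7349), *Cpe* (1695), *Chgb* (749), *Scg5* (576), *Pcsk2* (542), *Pcsk1n* (437) and *Pcsk1* (58.7 CPM per kb). The ranges of *Scg5*, *Pcsk2* and *Pcsk1n* overlapped, and the other neighbours in this order did not. With S-961 the order was *Ins2* (74128 CPM per kb), *Ins1* (38632), *Iapp* (24665), *Chga* (3900), *Cpe* (1235), *Chgb* (520), *Pcsk2* (457), *Scg5* (358), *Pcsk1n* (298) and *Pcsk1* (153 CPM per kb). Here the ranges of *Ins2* and *Ins1*, of *Ins1* and *Iapp*, and of each pair of neighbours from *Chgb* to *Pcsk1n* overlapped. By this measure *Pcsk1*, which encodes the convertase of the first insulin site, was the lowest of the 10 genes in both treatments. By median CPM it was the lowest without S-961 (329 CPM). With S-961 it was at 859 CPM, above *Pcsk1n* (654 CPM) and *Scg5* (562 CPM). Among all genes *Pcsk1* ranked 267th by median CPM without and 63rd with S-961. The order per kilobase depends on the length used, and *Pcsk1* has 5604 exon bases but a median annotated transcript of 1419 bases. No order by transcript length was made.

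The comparison of S-961 with untreated islets asked how the transcripts of the hormone and of its processing machinery stood under blocked insulin receptors. In the edgeR quasi-likelihood fit of all 11 libraries, averaged over both parity labels, 1 of the 10 genes was higher (*Pcsk1*) and 6 were lower (*Ins1*, *Ins2*, *Pcsk1n*, *Cpe*, *Chga* and *Scg5*) with S-961 at an adjusted p-value under 0.05. *Iapp*, *Pcsk2* and *Chgb* did not pass. Of all 17996 genes tested, 26.1% were called higher and 25.9% lower. The same 7 genes were called without multipara S-961 4 (*Ins2* −1.80, *Ins1* −1.65, *Chga* −0.92 and *Pcsk1* 1.46) and without multipara untreated 1 (−1.88, −1.70, −0.94 and 1.32). The median log2 fold change was −0.44 over the 10 genes and −0.01 over all genes. Bulk libraries do not tell apart fewer cells of a type from less RNA per cell.

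The hormones are described first. *Ins2* (ENSMUSG00000000215, chr7:142678656-142743381, minus strand, GRCm38) is the counterpart of the single insulin gene of most mammals. It was at 314426 and 326865 CPM in virgin untreated and 303356 and 417735 CPM in multipara untreated libraries. With S-961 it was at 95210, 97256 and 135862 CPM in virgin and at 78324, 115099, 68758 and 100210 CPM in multipara libraries. Every S-961 library was below every untreated one. On the log2 scale the difference was −1.77 ± 0.17 (SE; 3.42-fold, edgeR adjusted p = 2.18e-05).

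*Ins1* (ENSMUSG00000035804, chr19:52264297-52265476, plus strand) is the rodent copy of the insulin gene that arose through an RNA intermediate. It was at 120516, 125596, 121963 and 157308 CPM in the untreated libraries, in the same order, and at 33247 to 57432 CPM with S-961 (median 41027, n = 7). The groups did not overlap. This was a log2 fold change of −1.62 ± 0.15 (SE; 3.07-fold, edgeR adjusted p = 1.55e-05).

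*Iapp* (ENSMUSG00000041681, chr6:142298423-142303961, plus strand), which encodes amylin, did not follow insulin. Its level was 30998 and 31090 CPM in virgin untreated, 28315 and 35569 CPM in multipara untreated, 24024, 22798 and 30893 CPM in virgin S-961, and 24288, 32991, 16303 and 23564 CPM in multipara S-961 libraries. The ranges overlapped. The log2 fold change of −0.33 ± 0.18 (SE) did not pass (edgeR adjusted p = 0.150). As a share of all counts, *Iapp* held 2.39% to 2.56% without and 2.11% to 3.56% with S-961.

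The ratio of *Iapp* to *Ins2* counts within a library, which does not depend on library size or scaling, was higher with S-961. It was 0.0852 to 0.0986 in the 4 untreated and 0.227 to 0.310 in the 7 S-961 libraries. The mean ratio on the log scale was 2.73-fold higher (exact two-sided permutation test within parity labels, 150 arrangements, p = 0.00667, the smallest this design allows, and 0.04 after Benjamini-Hochberg adjustment over 18 tests). The *Ins1* to *Ins2* ratio was 0.377 to 0.402 without and 0.394 to 0.484 with S-961, with adjusted p = 0.06 in the same exact permutation test.

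*Pcsk1* (ENSMUSG00000021587, chr13:75089826-75134861, plus strand) was the only one of the 10 genes called higher with S-961. It was at 350 and 308 CPM in virgin untreated and 238 and 359 CPM in multipara untreated libraries. With S-961 it was at 942, 859 and 771 CPM in virgin and at 973, 999, 641 and 833 CPM in multipara libraries. The lowest S-961 library was above the highest untreated one. The log2 fold change was 1.46 ± 0.16 (SE; 2.74-fold, edgeR adjusted p = 4.77e-05).

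*Pcsk2* (ENSMUSG00000027419, chr2:143546156-143816285, plus strand), the convertase whose main site in proinsulin is the second pair, was at 4486, 4466, 3394 and 4103 CPM in the untreated libraries. With S-961 it was at 3219 to 3801 CPM (median 3619, n = 7), within the untreated range but for its lowest library. On the log2 scale the difference was −0.19 ± 0.10 (SE, edgeR adjusted p = 0.141). The annotated antisense genes *Pcsk2os1* and *Pcsk2os2* overlap it, and whether counting used strand is not given in the sources used here. The *Pcsk1* to *Pcsk2* count ratio rose 3.13-fold, from 0.0690 to 0.0875 in untreated to 0.199 to 0.273 in S-961 libraries, without overlap (exact permutation test, adjusted p = 0.04).

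*Pcsk1n* (ENSMUSG00000039278, chrX:7919822-7924410, plus strand), whose product proSAAS inhibits PC1/3, was lower where *Pcsk1* was higher. It was at 916, 1145, 959 and 957 CPM in the untreated libraries and at 575 to 893 CPM with S-961 (median 654, n = 7), without overlap. This was a log2 fold change of −0.53 ± 0.13 (SE, edgeR adjusted p = 0.00620). The ratio of *Pcsk1n* to *Pcsk1* counts fell 4.01-fold, from 2.62 to 4.04 in untreated to 0.591 to 1.16 in S-961 libraries (exact permutation test, adjusted p = 0.04).

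*Scg5* (ENSMUSG00000023236, chr2:113776362-113829121, minus strand) encodes 7B2, which PC2 needs to become active. It was at 991, 963, 644 and 845 CPM in the untreated libraries and at 469 to 766 CPM with S-961 (median 562, n = 7). The groups overlapped through multipara untreated 1 and multipara S-961 2. The log2 fold change was −0.55 ± 0.14 (SE, edgeR adjusted p = 0.00707). Relative to *Pcsk2*, *Scg5* counts were at 0.190 to 0.221 without and 0.142 to 0.203 with S-961, with adjusted p = 0.08 in the exact permutation test.

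*Cpe* (ENSMUSG00000037852, chr8:64592542-64693054, minus strand) was at 4646, 4514, 3134 and 4330 CPM in the untreated libraries and at 2915 to 3677 CPM with S-961 (median 3221, n = 7). Multipara untreated 1 lay within the S-961 range. On the log2 scale the difference was −0.34 ± 0.12 (SE, edgeR adjusted p = 0.0324), and the call was lost without either virgin untreated library, without virgin S-961 1 or 2, without multipara untreated 2 or without multipara S-961 1 (edgeR adjusted p = 0.0518 to 0.199).

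*Chga* (ENSMUSG00000021194, chr12:102554969-102565028, plus strand) had the largest fall of the 8 genes other than the insulin genes. It was at 21086, 20460, 18447 and 20046 CPM in the untreated libraries. With S-961 it was at 9992, 9831 and 11630 CPM in virgin and at 10748, 11511, 9548 and 11251 CPM in multipara libraries. The groups did not overlap. This was a log2 fold change of −0.91 ± 0.11 (SE; 1.88-fold, edgeR adjusted p = 5.38e-05).

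*Chgb* (ENSMUSG00000027350, chr2:132781278-132795079, plus strand) was at 2226, 2035, 1919 and 2068 CPM in the untreated libraries and at 1245 to 2541 CPM with S-961 (median 1425, n = 7). Multipara S-961 2 was above all untreated libraries and multipara S-961 1 was close to them. The log2 fold change of −0.34 ± 0.19 (SE) did not pass (edgeR adjusted p = 0.148). It was called lower without multipara S-961 2 (−0.43, edgeR adjusted p = 0.0306) and with the trend over median transcript length removed, as described below (−0.59, adjusted p = 0.0323). The ratio of *Chga* to *Chgb* counts was 9.47 to 10.1 without and 4.53 to 8.68 with S-961, with adjusted p = 0.08 in the exact permutation test.

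Of the 10 genes, *Pcsk1* was higher in all 7 S-961 than in all 4 untreated libraries, as were 17.4% of all genes tested. *Ins1*, *Ins2*, *Chga* and *Pcsk1n* were lower in all of them, as were 19.1% of all genes tested.

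**Figure D2:**
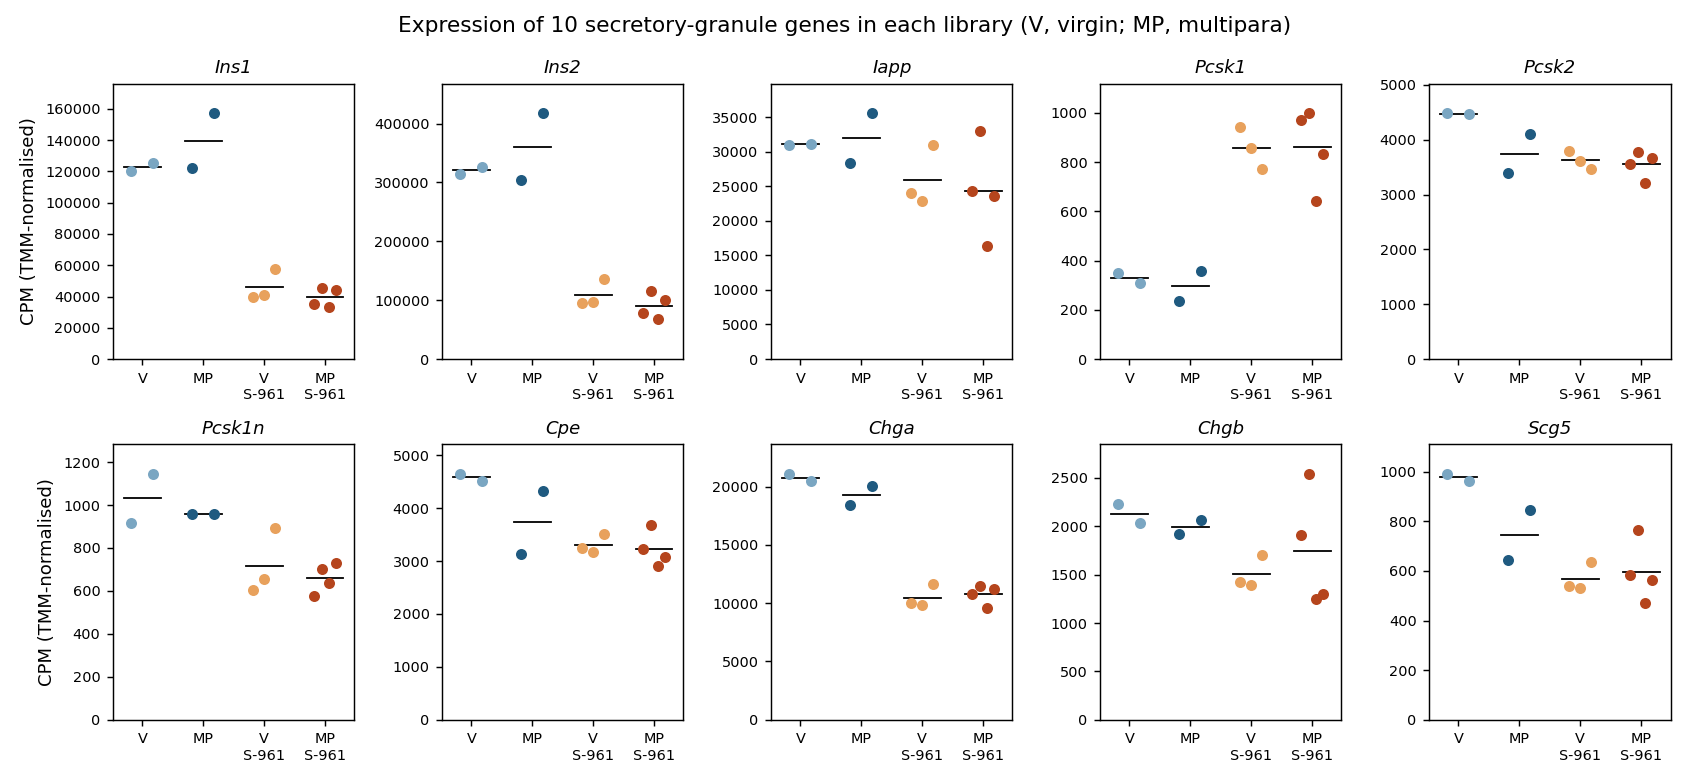
CPM (y axis, from 0) of each of the 10 genes in the 4 groups (x axis: V, virgin; MP, multipara; with or without S-961). Points are libraries and lines are group means. *Ins1*, *Ins2*, *Chga* and *Pcsk1n* are lower and *Pcsk1* is higher in every S-961 library.

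**Figure D3:**
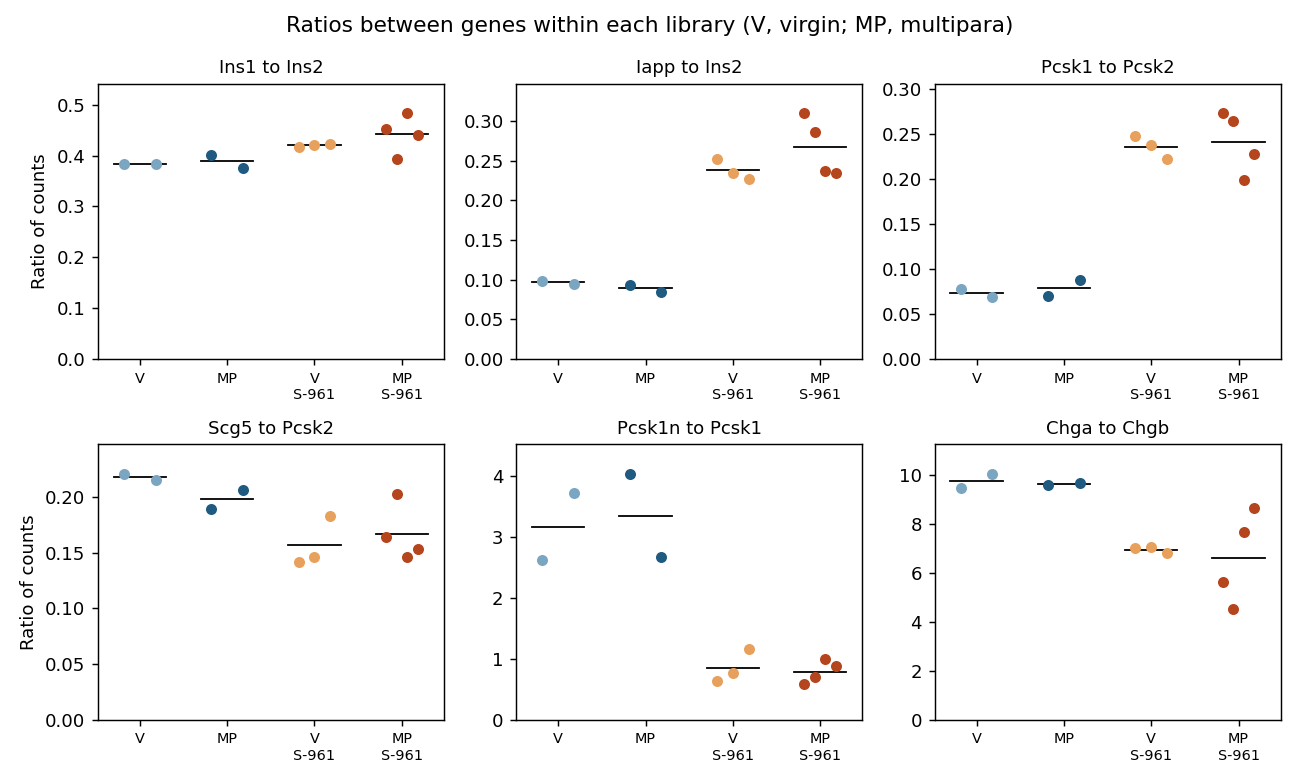
Ratio of counts (y axis, from 0) between 6 pairs of genes in each library (points) with group means (lines), by group (x axis, V, virgin; MP, multipara). *Iapp* to *Ins2* and *Pcsk1* to *Pcsk2* are higher and *Pcsk1n* to *Pcsk1* is lower in all 7 S-961 libraries than in all 4 untreated ones.

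The direction of the genes that changed little depended on the scaling of the libraries. With total counts alone in place of TMM, the median of all genes shifted to 0.51 on the log2 scale, and 8839 genes were called higher and 1817 lower, against 4704 and 4664 with TMM. *Ins1* (−1.10), *Ins2* (−1.25), *Chga* (−0.39) and *Pcsk1* (1.98) kept their direction and call. The sign turned for *Iapp* (0.19), *Pcsk2* (0.34, now called higher), *Cpe* (0.19) and *Chgb* (0.17), and *Pcsk1n* (−0.01) and *Scg5* (−0.03) were near 0 and no longer called. Relative to the shifted median of 0.51, these 6 genes still lay below it.

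The change with S-961 also moved with gene length, measured first as the exon bases of a gene. Among genes with at least 10 CPM, the median log2 fold change with S-961 was −1.17 for the 190 genes with up to 1000 exon bases, −0.64 for 797 genes between 1000 and 2000 bases, and −0.17 for 2607 genes between 2000 and 4000 bases. It was 0.13 for 3693 genes between 4000 and 8000 bases and 0.41 for 1976 longer genes. By median annotated transcript length the class medians lay closer together. They were −0.16 up to 1000 bases, 0.02 from 1000 to 2000, 0.25 from 2000 to 4000 and 0.44 from 4000 to 8000 bases. *Ins1* (1062 exon bases) and *Ins2* (1312) lay below their class, where 7.28% and 5.40% of genes had a lower log2 fold change. *Iapp* (974) lay high in its class, with 152 of 190 genes lower, and *Scg5* (1569) near the middle, with 54.6%. *Chga* (2756) lay low, with 10.6% of its class below it, and *Pcsk1* (5604) high, with 97.1%. In classes of median transcript length, 39.6% of genes lay below *Iapp* and 28.2% below *Scg5*. There 1.40% lay below *Ins1*, 2.82% below *Ins2*, 15.4% below *Chga* and 97.2% below *Pcsk1*.

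When the length trend was removed from each library, a step chosen after the data were seen, *Ins2* (−1.03), *Ins1* (−0.71), *Chga* (−0.70) and *Pcsk1* (1.32) kept their direction and call with exon length. *Iapp* then turned to 0.63 (edgeR adjusted p = 0.000382). *Scg5* turned to 0.06, *Pcsk1n* (−0.17) and *Cpe* (−0.10) were no longer called, and *Pcsk2* (−0.48) was called lower. With the median annotated transcript length in its place, *Ins2* was at −1.26, *Ins1* at −1.52, *Iapp* at −0.02, *Chga* at −0.78 and *Pcsk1* at 1.44. *Scg5* (−0.44, edgeR adjusted p = 0.00630), *Pcsk1n* (−0.69, 0.00142) and *Pcsk2* (−0.56, 0.00118) were then called lower, and *Cpe* (−0.14) was not called.

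**Figure D4:**
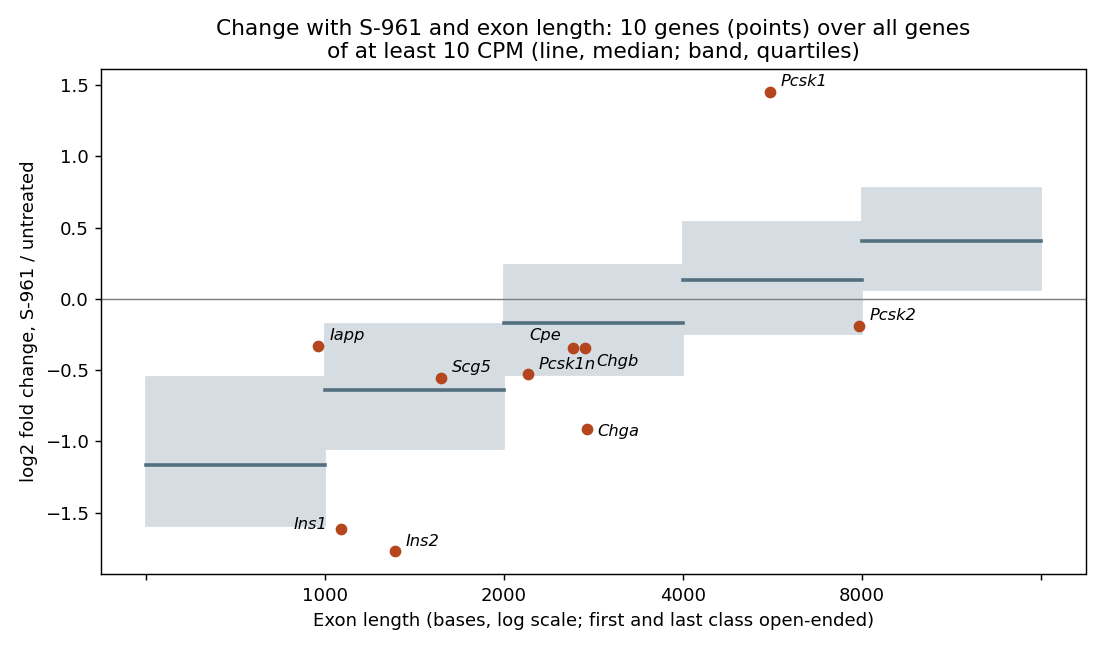
Log2 fold change of S-961 against untreated (y axis) by exon length in bases (x axis, log scale) for the 10 genes (points). Lines and bands give the median and quartiles of all genes of at least 10 CPM in each length class. The class medians climb from −1.17 to 0.41, *Ins1*, *Ins2* and *Chga* lie below the band of their class, and *Iapp* and *Pcsk1* lie above it.

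With the acinar marker level added as a covariate, none of the 10 genes was called, and of all 17996 genes 2 were. In that fit *Ins2* was at −0.86 ± 0.71, *Pcsk1* at 0.96 ± 0.66 and *Chga* at −0.48 ± 0.43 (SE). The acinar sum was higher in every S-961 library than in every untreated one, so that this fit cannot tell S-961 and exocrine RNA apart. The part of exocrine RNA in these results was not tested.

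*Ins1*, *Ins2*, *Chga* and *Pcsk1* passed within each parity label. In virgin libraries 1 gene was called higher, *Pcsk1* (1.38 ± 0.24, SE), and 4 lower, *Ins1* (−1.42 ± 0.22), *Ins2* (−1.55 ± 0.26), *Chga* (−0.99 ± 0.15) and *Scg5* (−0.78 ± 0.20), where 18.8% and 17.6% of all genes were called higher and lower. In multipara libraries 1 was called higher, *Pcsk1* (1.53 ± 0.23), and 4 lower, *Ins1* (−1.82 ± 0.20), *Ins2* (−1.99 ± 0.24), *Chga* (−0.84 ± 0.14) and *Pcsk1n* (−0.53 ± 0.18), against 18.2% and 19.4% of all genes. Both contrasts come from 1 fit and share its estimate of the spread. In multipara libraries 3 genes were called higher and 3 lower with total counts alone, where *Cpe* (0.38, edgeR adjusted p = 0.0174) and *Pcsk2* (0.51, 0.00253) joined *Pcsk1*. With the exon length trend removed they were also 3 and 3, where *Iapp* (0.62, edgeR adjusted p = 0.00586) and *Scg5* (0.33, 0.0428) joined it. In virgin libraries, 2 were called higher and 4 lower with that trend removed. There *Iapp* (0.65, edgeR adjusted p = 0.0056) was also called higher, *Pcsk2* (−0.61, 0.00594) was called lower, and *Scg5* (−0.21, 0.186) was not called. *Pcsk1n* was at −0.52 in virgin and −0.53 in multipara libraries, with edgeR adjusted p = 0.0534 and 0.0382, respectively. *Scg5* was at −0.32 in multipara libraries (edgeR adjusted p = 0.210). Without multipara S-961 4 the multipara values were −2.04 for *Ins2*, −1.88 for *Ins1*, 1.55 for *Pcsk1*, −0.86 for *Chga* and −0.58 for *Pcsk1n*, all still called. Without multipara untreated 1 they were −2.20, −1.99, 1.26, −0.90 and −0.53, and *Pcsk1n* was no longer called (edgeR adjusted p = 0.147), nor was it without multipara untreated 2 (0.140), multipara S-961 1 (0.0916) or multipara S-961 2 (0.0597). The call of *Scg5* in virgin libraries was lost without virgin untreated 1 (edgeR adjusted p = 0.0795) or 2 (0.0713). Without the filter on low counts, *Ins2* in virgin libraries (edgeR adjusted p = 0.0761) and *Chga* in multipara libraries (0.0825) did not pass.

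**Figure D5:**
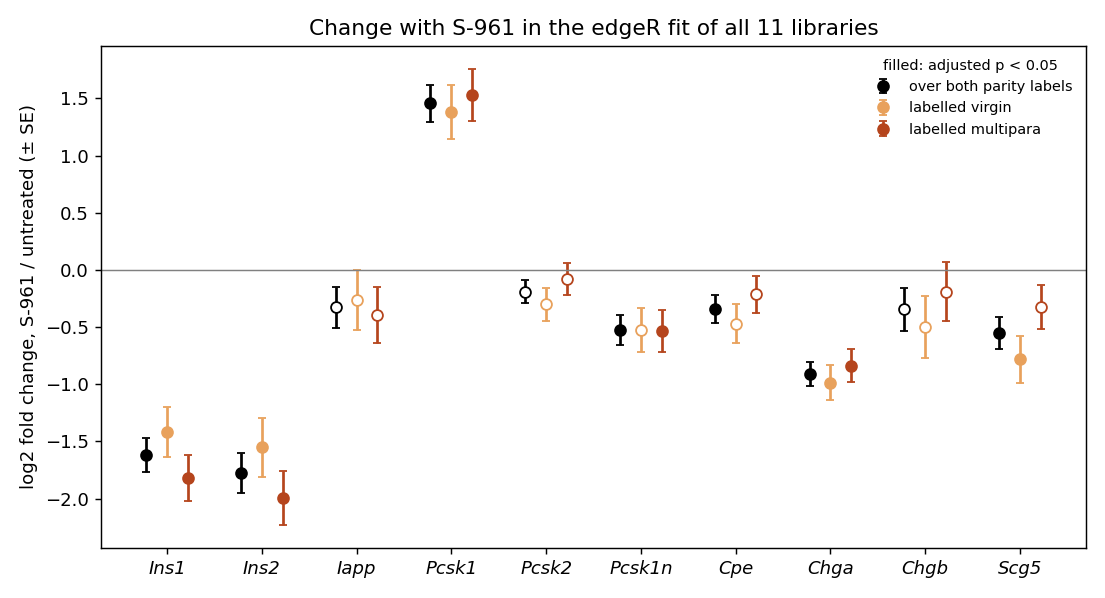
Log2 fold change of S-961 against untreated with its standard error (y axis) for the 10 genes (x axis), over both parity labels, in virgin and in multipara libraries, from the edgeR fit of all 11 libraries. Filled points have an adjusted p-value under 0.05. *Ins1*, *Ins2*, *Chga* and *Pcsk1* are filled in all 3 comparisons, and *Iapp*, *Pcsk2* and *Chgb* in none.

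The interaction asked whether the S-961 effect differed between the parity labels. None of the 10 genes was called in edgeR's test, none had an unadjusted p-value under 0.05, and DESeq2 called none of them. Of all genes tested, 0.0% were called by edgeR, 768 positive and 411 negative ones had an unadjusted p-value under 0.05, and DESeq2 called 61 in the positive and 20 in the negative direction. The largest interactions were 0.46 ± 0.29 (SE) for *Scg5* and −0.44 ± 0.36 for *Ins2*, with adjusted p = 0.811 and 0.870 in edgeR's test. Without multipara S-961 4 they were 0.49 and −0.49, and none of the 10 was called, beside 19 positive and 26 negative calls of 17887 genes. Without multipara untreated 1 they were 0.28 and −0.65, and edgeR called 0 of 18891 genes, with 769 positive and 234 negative ones at an unadjusted p-value under 0.05 (DESeq2 was not run without it). Without multipara untreated 2 they were 0.67 and −0.19, beside 0 positive and 32 negative calls of 19098 genes.

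The comparison of libraries labelled multipara and virgin asked whether repeated pregnancy left a mark on these genes, as far as the labels hold. With S-961, none of the 10 genes was called by edgeR or DESeq2, and none had an unadjusted p-value under 0.05. Of 16784 genes tested, edgeR called 0.0%, with 1348 higher and 282 lower at an unadjusted p-value under 0.05, and DESeq2 called 358 higher and 11 lower. *Ins2* was at 109443 ± 22903 CPM (SD, n = 3) in virgin and 90598 ± 20979 CPM (n = 4) in multipara libraries, a log2 difference of −0.26 ± 0.23 (SE, edgeR adjusted p = 0.754). *Ins1* was at −0.21 ± 0.20 (SE) and *Chgb* at 0.23 ± 0.26. *Pcsk1* was at 857 ± 85.1 CPM (SD) in virgin and 861 ± 164 CPM in multipara libraries. Without multipara S-961 4, *Ins2* was at −0.31, *Ins1* at −0.26 and *Chgb* at 0.35, and none of the 10 was called, beside 447 genes called higher and 78 lower of 16590.

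Without treatment, none of the 10 genes was called either, by edgeR or DESeq2, and none had an unadjusted p-value under 0.05. Of 15812 genes tested, edgeR called 0.0%, with 399 higher and 490 lower at an unadjusted p-value under 0.05, and DESeq2 called 22 higher and 34 lower. *Ins2* was at 320645 ± 8796 CPM (SD, n = 2) in virgin and 360546 ± 80879 CPM (n = 2) in multipara libraries. The largest difference was that of *Scg5*, −0.39 ± 0.15 (SE, edgeR adjusted p = 0.719), followed by *Cpe* at −0.29 ± 0.18 (adjusted p = 0.725). Calls for these genes rested on which untreated multipara library was kept. With multipara untreated 1 alone on that side, *Scg5* (−0.59, adjusted p = 0.0163) and *Cpe* (−0.53, adjusted p = 0.0243) were called lower by edgeR, beside 1485 genes called higher and 253 lower of 16851 in that fit. With multipara untreated 2 alone they were at −0.23 and −0.10 and not called, beside 22 genes called higher and 31 lower of 16271. The lone library is assumed there to vary like the others. None of the 6 ratios differed between parity labels in either treatment. The smallest p-value that the exact permutation test allows is 0.0286 for 3 against 4 libraries and 0.333 for 2 against 2, and the smallest adjusted p-value among the 12 parity tests was 0.667.

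Other genes that make, fold, sort and pack the same hormones were counted from lists of known members in the comparison over both parity labels, beside 26.1% and 25.9% of all genes called higher and lower. From each list, up to 3 genes with the smallest p-value and at least 10 CPM are named. Unless stated, these counts and values come from the fit with TMM, in which the length trend above was not removed. Of 15 further granule proteins, 8 were higher and 4 lower (median log2 fold change 0.55). *Resp18*, a granule protein of endocrine cells, was at 1972 to 2145 CPM without and 550 to 809 CPM with S-961 (−1.69 ± 0.12, SE). *Ucn3*, a hormone of mature β cells, was at 689 to 813 CPM and 278 to 406 CPM (−1.03 ± 0.13), and the small GTPase gene *Rab37* at 158 to 190 CPM and 46.5 to 122 CPM (−1.40 ± 0.18).

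Of 12 other tested processing enzymes, 3 were higher and 5 lower. The convertase gene *Pcsk4* was low, at 4.17 to 12.1 CPM without and 22.7 to 47.8 CPM with S-961 (1.82 ± 0.26, SE). *Cpd*, a carboxypeptidase of the Golgi, was higher (0.84 ± 0.14) and *Mbtps1*, the site-1 protease, lower (−0.37 ± 0.10), and *Mbtps1* turned to 0.16 with total counts alone. Of 26 tested genes of entry into the endoplasmic reticulum and folding, 10 were higher and 3 lower. *Ero1l*, an oxidase of disulfide formation, was at 44.3 to 56.2 CPM without and 77.6 to 106 CPM with S-961 (0.87 ± 0.10), whereas the translocon genes *Sec61g* (−1.88 ± 0.21) and *Sec62* (−0.67 ± 0.09) were lower.

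The granule is acidified by the vacuolar ATPase, and of 19 genes of granule acidification 6 were higher and 7 lower. Its subunit genes moved apart, with *Atp6v1a* higher (59.8 to 73.2 CPM without and 99.4 to 167 CPM with S-961) and *Atp6v1f* (−1.45 ± 0.13, SE) and *Atp6v1g1* (−0.92 ± 0.11) lower. Of 15 genes of granule budding and sorting, 6 were higher and 4 lower, and *Arfip1* (1.05 ± 0.12), *Ccdc186* (1.04 ± 0.13) and *Ap1g1* (0.89 ± 0.12) were among the higher ones.

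Of 14 genes of factors that bind or control the insulin genes, 7 were higher and 1 lower with S-961 while *Ins1* and *Ins2* were lower. *Neurod1* was at 62.6 to 85.7 CPM without and 155 to 196 CPM with S-961 (1.32 ± 0.12, SE). *Mafa* was at 183 to 269 CPM and 328 to 796 CPM (1.35 ± 0.18).

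The promoters are shown for 2 hormones that diverged, *Ins1* and *Iapp*, and for 2 granule genes, *Pcsk1* and *Chgb*. RefSeq windows (GRCm38.p6) from 250 bases before to 50 after the start were found for 8 of the 10 genes, not for *Ins2* and *Cpe*. Capitals mark matches on either strand to TAAT, the core bound by homeodomain factors such as PDX1, to the E box CATCTG, a form bound by NEUROD1, to the cyclic AMP response element TGACGTCA, or to the TATA box TATAAA.
Ins1 promoter: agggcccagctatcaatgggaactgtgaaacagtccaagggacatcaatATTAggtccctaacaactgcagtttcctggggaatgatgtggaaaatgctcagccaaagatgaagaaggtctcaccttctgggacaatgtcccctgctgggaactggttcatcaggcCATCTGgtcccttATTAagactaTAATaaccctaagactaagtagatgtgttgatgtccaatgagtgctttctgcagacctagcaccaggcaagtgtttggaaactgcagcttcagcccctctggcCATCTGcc
Iapp promoter: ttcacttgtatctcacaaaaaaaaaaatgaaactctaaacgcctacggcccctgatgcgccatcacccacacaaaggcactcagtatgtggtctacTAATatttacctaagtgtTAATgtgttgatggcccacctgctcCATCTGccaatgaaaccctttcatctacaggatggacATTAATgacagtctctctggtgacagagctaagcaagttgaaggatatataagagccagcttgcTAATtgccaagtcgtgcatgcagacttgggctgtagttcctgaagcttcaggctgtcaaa
Pcsk1 promoter: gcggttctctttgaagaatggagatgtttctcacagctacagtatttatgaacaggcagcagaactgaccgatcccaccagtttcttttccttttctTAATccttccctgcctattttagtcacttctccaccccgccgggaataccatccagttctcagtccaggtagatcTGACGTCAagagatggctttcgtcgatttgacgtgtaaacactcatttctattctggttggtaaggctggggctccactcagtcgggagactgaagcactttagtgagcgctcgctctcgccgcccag
Chgb promoter: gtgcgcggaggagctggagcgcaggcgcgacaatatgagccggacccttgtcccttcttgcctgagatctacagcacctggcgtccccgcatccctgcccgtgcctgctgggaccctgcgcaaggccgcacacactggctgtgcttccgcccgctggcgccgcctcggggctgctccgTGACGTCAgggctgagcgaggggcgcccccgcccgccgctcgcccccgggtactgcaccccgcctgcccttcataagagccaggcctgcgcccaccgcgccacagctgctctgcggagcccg
The windows are chr19:52264047-52264346, chr6:142298175-142298474, chr13:75089607-75089906 and chr2:132781392-132781691, all on the plus strand. *Ins1* held 3 TAAT and 2 CATCTG matches and *Iapp* held 5 and 1, with 2 of the TAAT matches of *Iapp* overlapping. TAAT was found in 58% and CATCTG in 17.2% of 32851 promoter windows of the same length. Of the 8 windows, those of *Ins1* and *Iapp* alone held CATCTG. The response element was found in those of *Pcsk1*, 78 bases before the RefSeq start, and *Chgb*, 72 bases before its RefSeq start. It was found in 1.79% of all windows. The *Chgb* window lies inside the gene as GENCODE M21 places it, from chr2:132781278 on. TATAAA was in the *Chga* window and in 13.6% of all. *Pcsk1* was higher with S-961 and *Chgb* was not called, and a match says only that the letters are there.

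The other islet hormones were called lower with S-961 in all 6 cases tested over both parity labels, as were 25.9% of all genes. *Gcg*, glucagon, was at 23751 to 50373 CPM without and 12489 to 21627 CPM with S-961 (−1.27 ± 0.14, SE). *Ppy*, pancreatic polypeptide, was at 5900 to 8024 CPM and 1152 to 2704 CPM (−1.92 ± 0.19). *Sst* (−0.94 ± 0.17), *Pyy* (−1.06 ± 0.13), *Ghrl* (−2.56 ± 0.29) and *Npy* (−1.13 ± 0.29) were lower as well. With the exon length trend removed, *Sst* (0.26), *Pyy* (0.24) and *Npy* (0.22) turned sign and were not called, *Ppy* (−0.44) was not called, and *Gcg* (−0.61) and *Ghrl* (−1.65) were still lower. With the median annotated transcript length in its place, the signs of *Sst*, *Pyy* and *Npy* did not turn. Of 8 α cell markers, *Gcg* among them, 4 were called lower and 0 higher over both labels. Of 5 δ cell markers 4 were called lower and 1 higher, beside 25.9% and 26.1% of all genes. In virgin libraries 6 of the α cell markers were called lower and 0 higher (median log2 fold change −0.85), beside 17.6% and 18.8% of all genes. In multipara libraries 1 was called lower and 3 higher (median 0.27), beside 19.4% and 18.2% of all genes. In the interaction of parity label and S-961, edgeR called 0 of the 8 α cell markers and 0.0% of all genes. All 8 were positive there (median 1.10, against −0.04 over all genes), as were all 5 δ cell markers (median 0.89). Between parity labels, all 8 α cell markers were negative without treatment (median −0.61) and all 8 positive with S-961 (median 0.53). In these 2 comparisons too, edgeR called 0 of them and 0.0% of all genes. The markers of α cells summed to 26390 to 57380 CPM without and 14258 to 24699 CPM with S-961, and those of δ cells to 3910 to 6964 CPM and 2128 to 3675 CPM. *Gcg* carried most of the α cell sum. The part of cell composition in these values was not tested.

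The genes outside the 10 whose pattern over the 11 libraries was closest to that of *Ins2* were *Phpt1*, *Uqcc2*, *Romo1*, *Ndufs6* and *Cox6c*. Their centred log2 CPM differed from that of *Ins2* by a root mean square of 0.117 to 0.124, against a spread of 0.909 of *Ins2* itself, among 9253 genes of at least 10 CPM. *Ins1* was at 0.107 from *Ins2*, *Chga* at 0.482 and *Iapp* at 0.708. Closest to *Pcsk2*, whose own spread was 0.147, were *Cttn*, *Itfg2*, *Sgsm3*, *Plod1* and *Fbxw8* at 0.0531 to 0.0706, and *Cpe* was at 0.111. These are descriptions over libraries that share the treatment and length pattern above.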

How the data were processed

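Bulk RNA-seq of 11 islet samples was analysed. Libraries were poly(A)-selected and strand-specific, made from RNA with a high integrity number, and the submitters' processing notes name STAR, RSEM and GRCm38 (mm10), without versions given in the sources used here. The authors deposited 1 table of expected counts per library, estimated read counts per gene without normalization. All 55536 identifiers and symbols matched GENCODE M21. Expected counts were rounded. The 10 genes and the gene lists were chosen with earlier results of these data known.

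All genes were fitted with edgeR 4.0.16 in R 4.3.3 (TMM, filterByExpr with minimum count 10 and minimum total 15, quasi-likelihood F-test, Benjamini-Hochberg adjustment over all genes tested, threshold 0.05). Treatment and interaction contrasts used all 11 libraries, and parity contrasts used the 7 S-961 or the 4 untreated libraries. DESeq2 1.42.0 was an alternative. Ratios of counts were compared by exact two-sided permutation tests. Within each pathway list, the 3 genes with the smallest p-value and at least 10 CPM were named, with all tested other hormones and the 5 genes most like *Ins2* and *Pcsk2*. A gene that this rule names is not reported here. The fits were tested on simulated counts. Alternatives with the length trend removed, or with the insulin genes left out of the total without TMM, were chosen after seeing the data. No pair of libraries agreed within sampling noise. Values were tabulated in Python 3.11.15.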

Additional observations from a re-analysis of the deposited data

How the results depend on the processing

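Over both parity labels, 7 of the 10 genes were called, and 5 to 8 under all alternatives but the acinar covariate, which gave 0 there and in each parity label. In virgin libraries DESeq2 called 8 against 5, and in multipara libraries 3 were called without the filter on low counts against 5. The counts without single libraries were 6 to 8 over both labels, 4 to 6 in virgin, 4 to 5 in multipara, 0 to 0 for the interaction and for parity with S-961, and 0 to 2 for parity without treatment. With the replicate block, 6 genes were called over both labels, *Cpe* being lost (edgeR adjusted p = 0.131), and 0 in each parity comparison and the interaction. Over all genes the block called 309 higher and 33 lower for parity with S-961 and 14 and 20 for the interaction, against 0. Same-numbered virgin and multipara libraries were also compared in their deviations from the group means. The correlations were 0.422, −0.616 and −0.447 with S-961 and −0.053 without. Deviations within such small groups sum to 0, so that these values cannot decide whether the numbers pair libraries.

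Signs turned as follows over both labels. With the acinar covariate *Iapp* was at 0.0375, *Pcsk1n* at 0.33 and *Npy* at 0.63. With total counts alone *Iapp* was at 0.19, *Pcsk2* at 0.34, *Cpe* at 0.19, *Chgb* at 0.17 and *Mbtps1* at 0.16. With the exon length trend removed *Iapp* was at 0.63, *Scg5* at 0.0589, *Sst* at 0.26, *Pyy* at 0.24 and *Npy* at 0.22. Within virgin libraries, *Pcsk1n* was at 0.29 with the acinar covariate. Within multipara libraries it was at 0.38 with the covariate and 0.0425 with total counts, and *Scg5* was at 0.33 with the length trend removed and 0.26 with total counts. *Ins1* between parity labels with S-961 was at 0.0700 with the covariate, and *Chgb* ran from −0.00706 (without multipara S-961 2) to 0.354 without single libraries. The cause was not tested.

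Of 18 ratio tests 3 passed, 5 on linear ratios, 6 when labels were permuted over all libraries, and 0 to 6 without single libraries, where 50 to 100 arrangements remained. The log2 difference then ran from 1.40 to 1.48 for *Iapp* to *Ins2*, from 1.60 to 1.72 for *Pcsk1* to *Pcsk2* and from −2.10 to −1.89 for *Pcsk1n* to *Pcsk1*. Without multipara S-961 4 these 3 differences were 1.464, 1.659 and −2.025 and kept their call. Without multipara untreated 1 they were 1.448, 1.61 and −1.891, and the calls did not hold with the 50 arrangements left. No alternative varied the depth.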
